A study of Mus musculus with 4 samples.

Results

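E proteins and their Id inhibitors were examined as 6 genes, the E protein genes Tcf3, Tcf4 and Tcf12 and the inhibitor genes Id1, Id2 and Id3, out of 20599 gene symbols quantified by RNA-Seq. The members were set by name, as the E protein and Id gene families, and each was found once in the gene tables. The libraries came from wild-type mice of the C57BL/6 strain, labelled 4 weeks old, and comprised 2 replicates of peritoneal B1a cells, sorted on surface markers that included CD23- IgM+ CD5+, and 2 replicates of splenic follicular B2 cells, sorted on markers that included IgD hi IgM lo CD21+. The study's methods give a later age for the follicular cells, so that cell type, tissue and possibly age cannot be told apart in any difference between B1a and B2 cells. The study's methods describe the controls as C57BL/6J mice in one place and as littermates of the knockout mice in another, and do not settle whether they carried a Cre transgene or a floxed allele. By the methods the 2 replicates of each cell type came from separate mice.

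E proteins are basic helix-loop-helix transcription factors that bind E-box DNA as dimers with each other or with tissue-restricted partners, and in B lymphocytes they drive lineage commitment and immunoglobulin gene recombination. Id proteins have the helix-loop-helix but lack the basic region that contacts DNA, so an E protein paired with an Id protein cannot bind. The amount of E protein relative to Id protein is therefore the quantity usually considered, and these data measure it as RNA only. In sorted bulk samples, fewer cells expressing a gene and less RNA per cell cannot be told apart.

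The libraries held between 11032732 and 18588623 counts. The B1a replicates correlated less closely with each other (Pearson's r = 0.836 across the log2 CPM of tested genes, which are not independent) than the B2 replicates did (r = 0.966). Across cell types, B1a against B2 libraries gave r between 0.788 and 0.858, so at least 1 such pair correlated more closely than the B1a replicates. The B cell genes Ms4a1, Cd79a, Cd79b, Cd22 and Blk lay above 3 counts in every library. Of 6 B1a markers 5 were called higher in B1a cells, whereas Cd5, a marker of the sort, was not, with 15.9 and 22.4 CPM in B1a against 5.47 and 2.25 CPM in B2 cells (adjusted p = 0.146, edgeR's quasi-likelihood test). Both follicular markers, Fcer2a and Cr2, were called higher in B2 cells. Levels are given as TPM (a library-scaled transcript level corrected for transcript length) where genes are compared with each other. They are given as CPM (a library-scaled count that uses edgeR's TMM factors) where 1 gene is compared between cell types.

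Transcripts of the 3 E protein genes outnumbered those of the 3 Id genes in every library, and the excess was larger in B1a cells. The ratio of summed E protein TPM to summed Id TPM was 4.96 and 5.18 in B1a replicates 1 and 2, and 2.59 and 2.74 in B2 replicates 1 and 2. The groups did not overlap, and the log2 ratio averaged 2.34 ± 0.04 in B1a and 1.41 ± 0.06 in B2 cells (SD, n = 2 each), a difference of 0.93 or 1.91-fold. Because it is a ratio within a library, this difference does not depend on how the libraries are scaled. It does depend on the summary: with the mean log2(TPM + 1) of the genes in place of the sum, E protein minus Id was 4.13 and 3.52 in B1a and 3.18 and 3.48 in B2 cells, so that the groups nearly touched and the difference was 0.49. It is given as a description without a p-value, and with 2 libraries against 2 the smallest two-sided exact permutation p is 0.333.

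How much of the difference in the ratio came from each sum depended on the scale. The summed E protein level was 493 and 402 TPM in B1a and 408 and 395 TPM in B2 cells, with the groups overlapping. The summed Id level was 99.4 and 77.6 TPM in B1a and 158 and 144 TPM in B2 cells, which did not overlap, and the B2 mean was 1.71-fold higher. In CPM, which is not corrected for length and is also scaled between libraries in another way, by TMM factors, the groups overlapped in neither sum. The E protein sum was 1030 and 891 CPM in B1a and 648 and 652 CPM in B2 cells. The Id sum was 38.5 and 32.9 CPM in B1a and 52.0 and 48.6 CPM in B2 cells. On log2(TPM + 1) the median log2 fold change of all genes was -0.30. With Id3 left out of the summed TPM the ratios were 98.4 and 22.1 in B1a and 47.0 and 45.8 in B2 cells. The mean log2 difference was then 0.01, with overlapping groups. Without Tcf4 the difference was 0.57. Leaving out Id3 removed most of the denominator, since it made up between 76.5% and 95.0% of the summed Id TPM. What remained was mainly Id2, whose B1a replicates differed 3.64-fold. The 0.01 therefore does not show that the groups were alike. Among the E protein genes, only leaving out Tcf4 lowered the difference.

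**Figure D1:**
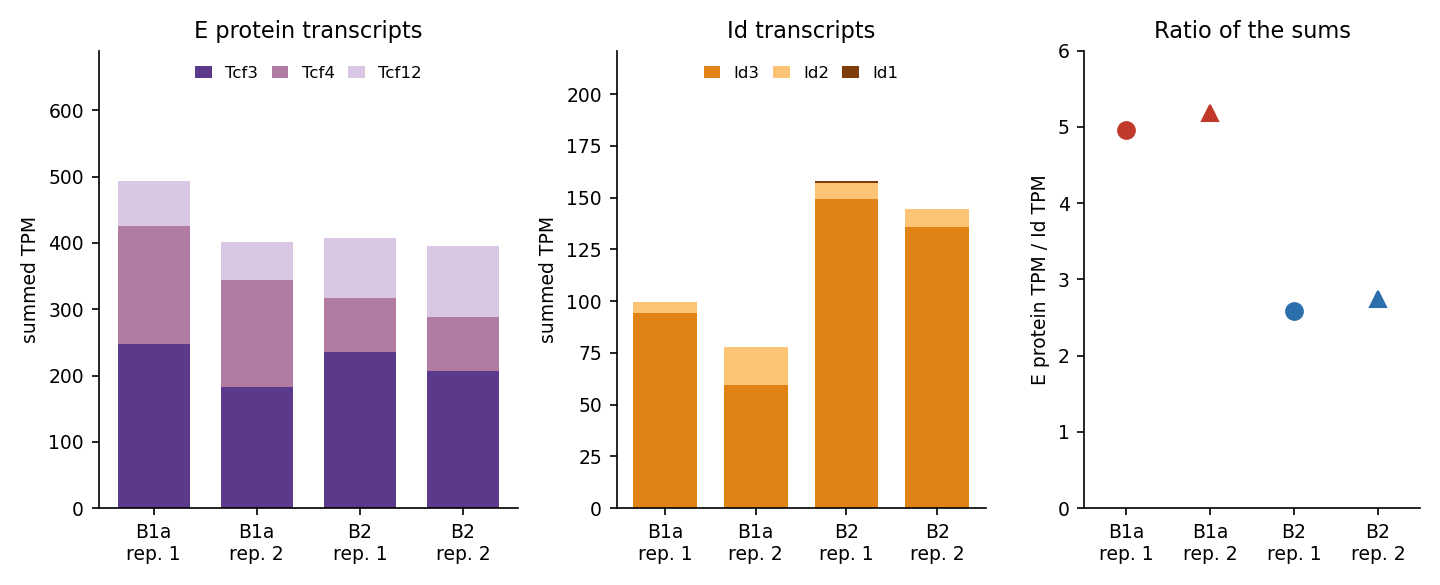
Stacked bars show the TPM of the 3 E protein genes (left) and the 3 Id genes (middle) in each library on linear axes from 0, and points show the ratio of the sums (right). The ratio is 4.96 and 5.18 in the B1a libraries and 2.59 and 2.74 in the B2 libraries.

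The order of the members differed between the cell types. In B1a cells Tcf3 had the highest mean level (216 ± 45.7 TPM, SD, n = 2), followed by Tcf4 (169 ± 11.5 TPM) and then by Id3 and Tcf12, whose replicates overlapped. In B2 cells Tcf3 again led (221 ± 19.9 TPM), followed by Id3 (142 ± 9.43 TPM), Tcf12 and Tcf4. Id2 followed and Id1 came last in both. Tcf3 made up between 45.6% and 57.7% of the summed E protein TPM in the 4 libraries. The Tcf4 share was 35.9% and 39.9% in B1a against 19.9% and 20.3% in B2 cells, and the Tcf12 share was 13.7% and 14.4% against 22.4% and 27.2%. The composition of the E protein RNA thus differed between the cell types in these 4 libraries. The shares were not tested, and a larger share of 1 gene lowers those of the others. The ratio of Tcf4 to Tcf12 TPM was 2.61 and 2.77 in B1a and 0.890 and 0.748 in B2 cells.

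**Figure D2:**
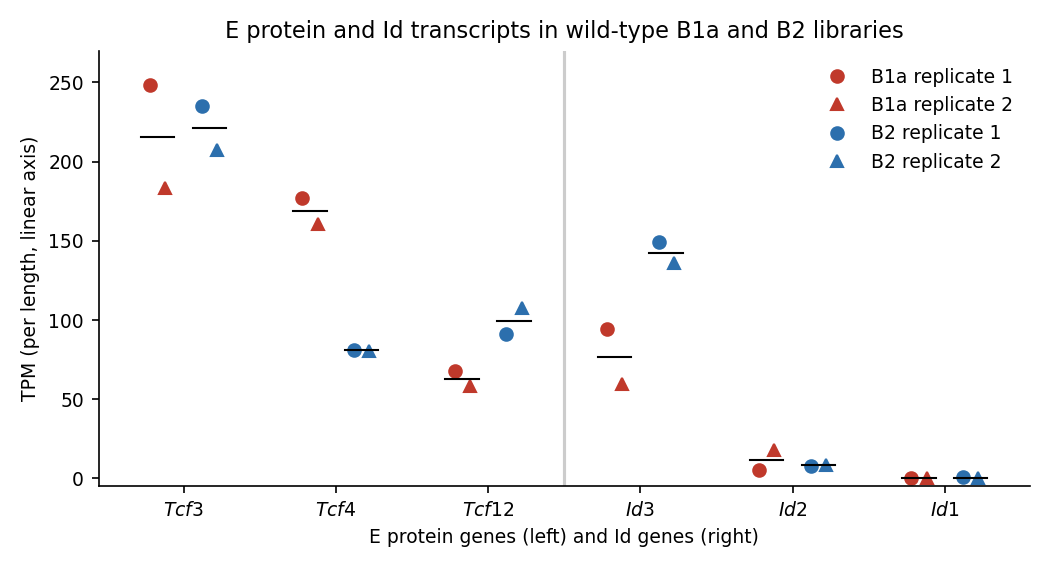
Level of each member in TPM (linear axis) in the 4 libraries, with circles for replicate 1, triangles for replicate 2 and a line at each group's mean. The Tcf4 points of B1a cells lie above those of B2 cells, the Id3 and Tcf12 points of B1a cells lie below, and the Tcf3 and Id2 groups overlap.

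Of the 6 members 5 had enough counts to be tested, and 1 of the 5, Tcf4, passed the threshold (adjusted p under 0.05) between B1a and B2 cells in edgeR's quasi-likelihood test. Across all 12078 genes tested 5.74% passed, 4.24% as higher in B1a and 1.50% as higher in B2 cells. Without B1a replicate 1, Tcf4, Tcf12 and Id3 passed, and without B1a replicate 2, Tcf3 and Tcf4 passed, but in those fits 31.0% and 48.9% of all genes passed. At an unadjusted p under 0.05, 2 of the 5 members passed, against 20.9% of all genes. The libraries of the groups did not overlap for Tcf4, Tcf12 and Id3, but this was so for 54.3% of all genes tested.

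Tcf4, the E protein gene also known for its role in plasmacytoid dendritic cells, reached 546 and 512 CPM in B1a replicates 1 and 2 and 214 and 216 CPM in B2 replicates 1 and 2. Both B1a libraries were well above both B2 libraries, and the replicates of each cell type lay close together. The level was 2.47-fold higher in B1a cells (log2 fold change 1.30, SE 0.12, adjusted p = 0.00402 in edgeR's quasi-likelihood test). Tcf4 ranked 99 by p among all genes tested, and 313 of the 512 genes called higher in B1a cells had a larger fold change. The call held in 16 of 16 alternative settings, with log2 fold changes between 1.05 and 1.35. In the settings that used all 4 libraries, adjusted p-values lay between 5.28e-20 (DESeq2) and 0.0472 (limma on log2(TPM + 1) without a filter). The limma fits on the TPM scale gave 0.0321 to 0.0472. Siglech, a defining marker of plasmacytoid dendritic cells, was at 1.15 and 4.17 CPM in B1a and 4.98 and 3.47 CPM in B2 cells. The summed level of the 6 markers of those cells was 544 and 471 CPM in B1a against 328 and 391 CPM in B2 cells, most of it Ly6d (499 and 424 against 237 and 308 CPM), which B cells also express. Of the 6 markers 5 exceeded 3 counts in every library, and their part in the Tcf4 values was not tested.

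Tcf3, the E protein gene most closely tied to B cell commitment, was at 348 and 264 CPM in B1a and 281 and 251 CPM in B2 cells. The groups overlapped, and the replicates of B1a cells differed from each other 1.35-fold in TPM. The log2 fold change of 0.20 (SE 0.17, adjusted p = 0.588, edgeR) did not pass, and its sign changed to -0.05 on the TPM scale and to -0.01 without B1a replicate 1. Without B1a replicate 2 it was 0.39 with an adjusted p of 0.00858, so the call rested on which B1a library was used.

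Tcf12, which encodes the E protein HEB, was at 132 and 115 CPM in B1a and 154 and 185 CPM in B2 cells. Both B1a libraries were below both B2 libraries, opposite to Tcf4. The log2 fold change of -0.46 (SE 0.17, unadjusted p = 0.0379, adjusted p = 0.206, edgeR) did not pass. It kept its sign in 16 of 16 alternatives and passed in 1, without B1a replicate 1 (-0.57, adjusted p = 0.00375). The abundance-weighted transcript length of Tcf12, an estimate of which of its 5 transcripts were used, was 4576 and 4528 bases in B1a and 4658 and 4678 bases in B2 cells.

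Id3, an inhibitor gene induced by antigen receptor and TGF-beta family signals, was at 36.0 and 23.2 CPM in B1a and 48.3 and 44.7 CPM in B2 cells, from counts of 401, 258, 557 and 855. Both B1a libraries were below both B2 libraries, and the B1a replicates were spread more widely than the B2 replicates. The fitted level was 1.57-fold higher in B2 cells (log2 fold change of B1a over B2 -0.65, SE 0.32, adjusted p = 0.327, edgeR), which did not pass. It kept its sign in 16 of 16 alternatives, from -1.004 to -0.37, and passed in 1 (without B1a replicate 1, adjusted p = 0.000768). Id3 provided between 76.5% and 95.0% of the summed Id TPM in the 4 libraries. The ratio of the sums thus depended on Id3, while the gene's own difference did not pass the test across all genes.

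Id2, the inhibitor gene best known from innate lymphoid and NK cells, was at 2.60 and 9.71 CPM in B1a and 3.47 and 3.87 CPM in B2 cells, from 29, 108, 40 and 74 counts. The B1a replicates lay on either side of the B2 replicates and differed from each other 3.64-fold in TPM. The log2 fold change of 0.74 (SE 1.09, adjusted p = 0.785, edgeR) did not pass, passed in 0 of 16 alternatives and was -0.50 without B1a replicate 2. B1a replicate 2, which was high for Id2, also had more of the 5 erythroid markers together (504 against 78.8 CPM in B1a replicate 1). Of the erythroid markers, 4 exceeded 3 counts in every library, and their sum was 36.1 and 80.8 CPM in B2 cells. The 9 macrophage markers quantified summed to 201 and 228 CPM in B1a and to 57.7 and 64.9 CPM in B2 cells. Most of the B1a sum was Lyz2 (127 and 136 against 16.8 and 27.2 CPM), the only 1 of them called. Of the 8 macrophage markers tested, 7 had a log2 fold change above 0, with a median of 1.81. Of these 9 markers, 7 lay above 3 counts in every library. Their part in the Id2 values was not tested. The 8 NK and innate lymphoid markers summed to at most 0.615 CPM in B1a cells and to 10.5 and 13.6 CPM in B2 cells, and none exceeded 3 counts in every library.

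Id1 had 3 counts in B2 replicate 1 and 0 in the other libraries, at or below the limit of 3 counts that a count of 0 allows, which equals between 0.157 and 0.270 CPM and covers counting error only. No fold is given and Id1 could not be tested. Id4, the remaining Id gene, had 0 counts in every library.

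**Figure D3:**
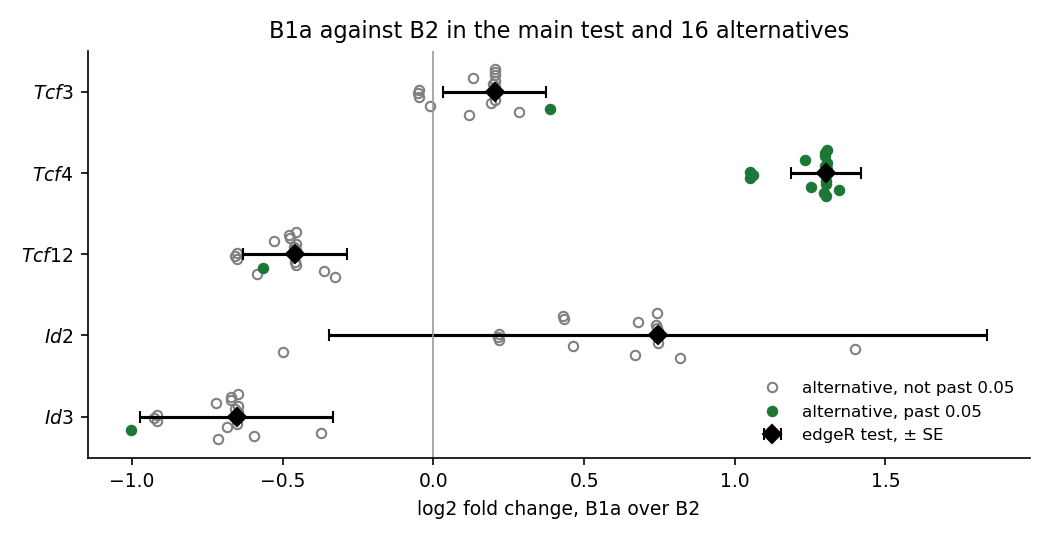
Log2 fold change of B1a over B2 cells for the 5 tested members, with diamonds and SE bars from edgeR's quasi-likelihood test and circles from 16 alternative settings, filled where the adjusted p was under 0.05. Tcf4 passed throughout, whereas Tcf3, Tcf12 and Id3 each passed once, on leaving out 1 B1a library, and the sign of Tcf3 changed on the TPM scale and without B1a replicate 1.

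The RefSeq promoter table (GRCm38.p6) held Tcf3, Tcf12, Id2 and Id3. The 250 bases before a transcription start of Id2, Id3 and Tcf3 are shown since E proteins act through E-boxes, spelled CANNTG. Id3 made up most of the Id sum. Capitals mark CANNTG, which reads as itself on the opposite strand. The windows are chr4:136143572-136143821 on the plus strand for Id3, chr12:25096093-25096342 on the minus strand for Id2 and chr10:80433636-80433885 on the minus strand for Tcf3.
Id3: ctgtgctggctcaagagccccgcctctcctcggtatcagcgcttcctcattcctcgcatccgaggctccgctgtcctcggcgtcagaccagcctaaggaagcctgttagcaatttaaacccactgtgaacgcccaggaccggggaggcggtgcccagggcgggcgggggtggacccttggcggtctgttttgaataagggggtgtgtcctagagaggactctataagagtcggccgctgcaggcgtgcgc
Id2: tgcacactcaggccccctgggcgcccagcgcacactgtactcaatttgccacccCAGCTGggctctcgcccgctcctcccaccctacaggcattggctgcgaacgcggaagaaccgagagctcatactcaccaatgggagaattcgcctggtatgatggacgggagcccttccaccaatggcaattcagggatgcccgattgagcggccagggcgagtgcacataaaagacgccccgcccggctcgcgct
Tcf3: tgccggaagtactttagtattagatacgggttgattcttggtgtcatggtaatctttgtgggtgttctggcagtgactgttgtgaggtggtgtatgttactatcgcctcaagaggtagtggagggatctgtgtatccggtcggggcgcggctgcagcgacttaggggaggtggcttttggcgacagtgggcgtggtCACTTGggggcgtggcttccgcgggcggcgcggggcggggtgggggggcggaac
The Id3 window held no match, the Id2 window held 1 match of the form CAGCTG beginning 196 bases before the start, and the Tcf3 window held 1 of the form CACTTG beginning 54 bases before it. Among 32851 windows of this length, 66.2% held CANNTG and 13.0% held CAGCTG, so most promoters have such letters and a match is no evidence of binding. GCGNGGGCG, the form bound by EGR factors, was searched on both strands and was absent from these 3 windows and present in 4.70% of all. The Id3 gene lies at chr4:136143822-136145392, the Id2 gene at chr12:25093799-25096092 and the Tcf3 gene at chr10:80409541-80433976. The Tcf3 window lies inside that span, so the start it precedes is not the outermost start of the gene.

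Each member's nearest neighbours were the genes whose log2 CPM, centred over the 4 libraries, differed least from its own. For Tcf4 these were Il5ra, which encodes the IL-5 receptor alpha chain (root mean square difference 0.0359), Slc7a1 (0.0401) and Vcl (0.0419). Il5ra was at 424 and 377 CPM in B1a and 155 and 159 CPM in B2 cells. The nearest genes to Id3 were Slc37a1 (0.0335), Rfc1 (0.0390) and Ccdc134 (0.0438), those to Tcf12 were Rfx7 (0.0161), Nup214 (0.0257) and Dusp11 (0.0283), and those to Tcf3 were Cdyl2 (0.0202), Git1 (0.0213) and Snx4 (0.0220). Id2 had no close neighbour, the nearest being Rab28 (0.127), Klf9 (0.146) and Dctn3 (0.150). With 4 libraries such likeness is a description.

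Genes that work with E and Id proteins were followed in 5 lists of 71 distinct genes, chosen with earlier results of these data known. Their counts stand against 4.24% of all genes tested called higher in B1a and 1.50% called higher in B2 cells. Of the 8 tested of 14 partners and cofactors, 1 was called higher in B1a cells, 1 was called higher in B2 cells and 6 did not pass (median log2 fold change -0.14, against -0.03 over all genes tested). Lmo2, an adaptor that bridges helix-loop-helix dimers, was at 41.5 and 37.5 CPM in B1a and 193 and 184 CPM in B2 cells (log2 fold change -2.26, SE 0.17, adjusted p = 0.00250, edgeR). Cbfa2t3, a corepressor recruited by E proteins, was at 323 and 317 CPM in B1a and 110 and 96.1 CPM in B2 cells (1.63, SE 0.14, adjusted p = 0.00388, edgeR). These 2 cofactors moved in opposite directions. The coactivator genes Ep300 and Crebbp, with log2 fold changes of -0.45 and -0.44, did not pass (adjusted p = 0.123 and 0.136, edgeR). Id4, Tal2, Msc, Ascl2 and Runx1t1 had 0 counts in every library.

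Of 15 tested of 19 genes listed as E protein targets in early B cells or for B cell identity, 5 were called higher in B2 cells, 1 was called higher in B1a cells and 9 did not pass, with a median log2 fold change of -0.44. The 5 included 3 transcription factors of B cell commitment, Ebf1, Pax5 and Foxo1. Pax5 was at 268 and 265 CPM in B1a and 501 and 492 CPM in B2 cells (-0.90, adjusted p = 0.0100, edgeR). Foxo1 was at 248 and 220 CPM in B1a and 478 and 484 CPM in B2 cells (-1.04, adjusted p = 0.00907, edgeR). Bcl11a, a zinc finger factor needed for lymphoid development, also passed (-1.26, adjusted p = 0.00490, edgeR). These genes were lower in the cells with the larger ratio of E protein to Id RNA. Ebf1 (-0.58, adjusted p = 0.0431, edgeR) lost its call in 3 of 16 alternatives. Vpreb3, a surrogate light chain family gene, had 0 counts in both B1a libraries and 23.2 and 20.1 CPM in B2 cells, at least 80.4-fold lower in B1a cells against a floor of 3 counts per library, and passed in 13 of 15 alternatives. Bcl11a passed in 15 of 16 alternatives, as did Cbfa2t3 above. Cd79a, a signalling chain of the antigen receptor, was higher in B1a cells (0.54, adjusted p = 0.0349, edgeR) and passed in 10 of 16 alternatives.

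Of 13 tested of 14 genes listed as targets in activated and cycling B cells, 2 were called higher in B1a cells, 3 were called higher in B2 cells and 8 did not pass (median -0.08). Cxcr5, the follicle homing receptor, was at 940 and 1095 CPM in B1a and 393 and 410 CPM in B2 cells (1.34, adjusted p = 0.00428, edgeR). Prdm1, which drives plasma cell differentiation, was also higher in B1a cells (2.82, adjusted p = 0.0346, edgeR) and passed in 10 of 16 alternatives. Irf8 (-1.84), the chemokine receptor gene Cxcr4 (-1.67) and the phosphatase gene Ptpn6 (-0.87) were lower in B1a cells, with adjusted p = 0.00236, 0.0254 and 0.0283 in edgeR's test, and Cxcr4 and Ptpn6 each passed in 15 of 16 alternatives.

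Of 14 tested of 16 genes that feed into Id transcription, through TGF-beta and BMP receptors, SMADs and EGR factors, 2 were called higher in B2 cells and 12 did not pass (median -0.21). Smad7, an inhibitor and itself a target of TGF-beta signalling, was at 15.9 and 13.1 CPM in B1a and 118 and 114 CPM in B2 cells (-3.00, SE 0.24, adjusted p = 0.00274, edgeR). Skil, another feedback inhibitor of SMADs, was lower in B1a cells by a log2 fold change of -0.94 (adjusted p = 0.0432, edgeR) and passed in 11 of 16 alternatives. In the other direction, Egr2 was at 49.3 and 45.6 CPM in B1a and 15.96 and 19.5 CPM in B2 cells (1.42, adjusted p = 0.0578, edgeR) and did not pass, and Bmpr1a, with 0 counts in B2 cells, was at least 18.3-fold higher in B1a cells and did not pass (adjusted p = 0.113, edgeR). Egr3 was lower in B1a cells, at 106 and 163 CPM against 238 and 212 CPM in B2 cells (-0.74, adjusted p = 0.145, edgeR), and did not pass. The receptor gene Tgfbr2 (-0.13, adjusted p = 0.576, edgeR) and Egr1 (0.00, adjusted p = 0.998, edgeR) did not pass. Of the 14 tested genes in this list, 6 had a log2 fold change above 0. Of 8 genes for turnover of E and Id proteins 0 passed in edgeR's test (median -0.01). At an unadjusted p under 0.05 (edgeR) there were 4 of the 8, against 20.9% of all genes. Of the 4, Huwe1 was higher in B1a cells (log2 fold change 0.25), while Usp1 (-0.60), Asb2 and Cdc20 were lower. Asb2 and Cdc20 had 0 counts in both B1a libraries. The same cut was passed by 4 of 8 partners and cofactors and 6 of 14 genes that feed into Id transcription. It was also passed by 11 of 15 early B cell and identity targets and 9 of 13 targets in activated and cycling B cells. DESeq2 called 2 of the turnover genes higher in B2 cells, against 551 of all 12078 genes. Of all genes tested, 4.24% were called higher in B1a and 1.50% higher in B2 cells. Over the 5 lists, 4 genes were called higher in B1a and 11 higher in B2 cells. These counts became 13 and 24 without B1a replicate 1, 14 and 24 without B1a replicate 2, and 2 and 9 without either B2 replicate, while the genes called among all tested became 3953, 6143, 539 (without B2 replicate 1) and 559 (without B2 replicate 2).

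**Figure D4:**
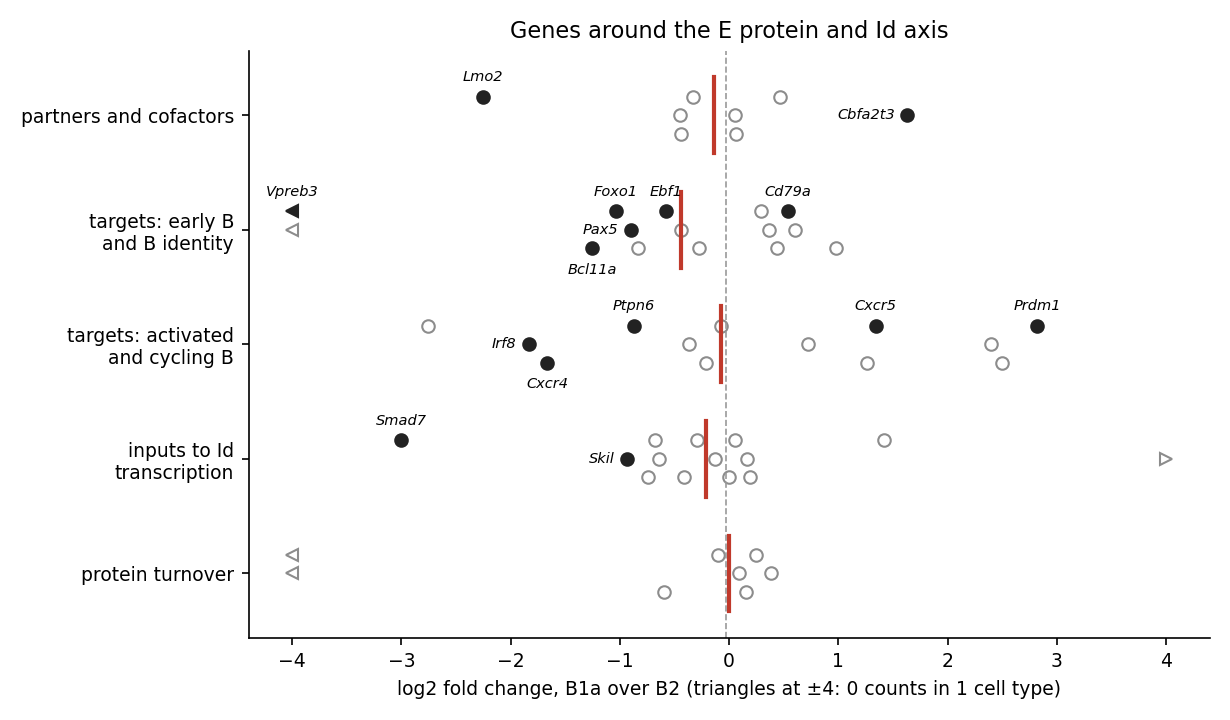
Log2 fold change of B1a over B2 cells for the tested genes of the 5 lists, with filled symbols for genes that passed, a red line at each list's median and a dashed line at the median of all genes. Triangles are genes with 0 counts in 1 cell type, whose fold is not measured, and more filled symbols lie to the left (11, higher in B2) than to the right (4, higher in B1a). Over all genes tested, 181 passed as higher in B2 and 512 as higher in B1a. The lists were chosen with earlier results of these data known, so the split among their genes is a description.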

How the data were processed

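RNA-Seq of 2 wild-type B1a and 2 wild-type follicular B2 libraries was used. The authors mapped reads to mm10 and used RSEM on RefSeq genes; its version is given differently in the methods and in the submitters' processing notes (1.2.29 in the notes). The authors deposited expected counts, in which reads shared by several entries are divided, and TPM, scaled to the same total in each library. A deposited signal value, RSEM's posterior SD of a gene's count, was at most 1.91 for the members. Expected counts of 21970 entries were summed over 20599 symbols and rounded. Genes were filtered with filterByExpr, scaled by TMM (factors 0.963 to 1.05) and compared by the quasi-likelihood test of edgeR 4.0.16 under R 4.3.3, with Benjamini-Hochberg adjustment over 12078 genes and a threshold of 0.05. Standard errors were derived from the F statistic. The scripts were tested on simulated counts. The study used EBSeq, which was not run here.

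Replicate numbers came from the labels. The text names all members, every list gene that passed, Id4 and the 3 genes of at least 10 CPM nearest to each member. Ep300, Crebbp, Tgfbr2, Egr1, Egr2, Egr3 and Bmpr1a, and the turnover genes and markers given singly, were chosen after their values were seen. Members and lists were chosen with earlier results of these data known. Alternatives were DESeq2 1.42.0, limma 3.58.1 (voom, voom with group weights, and log2(TPM + 1) or log2(TPM + 0.1)), other scaling factors and filters, unsummed entries, a replicate block and each library left out. A further sorting marker is not reported here.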

Additional observations from a re-analysis of the deposited data

How the results depend on the processing

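The call of Tcf4 held in all 16 alternatives. Id2 passed in 0 of them, and Tcf3, Tcf12 and Id3 passed in 1 each. Id1 could not be tested. Tcf3 reversed to -0.049, -0.05 and -0.049 by limma on log2(TPM + 1), on log2(TPM + 0.1) and on log2(TPM + 1) without a filter, but the median of all genes was then -0.30, -0.32 and -0.26, and relative to it Tcf3 was at 0.25, 0.27 and 0.21. On leaving out 1 replicate at a time, the log2 fold change ranged from -0.01 to 0.39 for Tcf3, 1.254 to 1.346 for Tcf4, -0.59 to -0.33 for Tcf12, -0.498 to 1.398 for Id2 and -1.004 to -0.37 for Id3. A lone library is assumed there to vary like the other group. The difference in the log2 ratio of E protein to Id transcripts was 0.931, and moved to 1.05 with CPM, 0.49 with mean log2(TPM + 1), 1.14 without Tcf3, 0.57 without Tcf4, 1.12 without Tcf12, 1.08 without Id2 and 0.006 without Id3. It was 0.93 without Id1 and with Id4 added (chosen after seeing the data), 0.89 with mean log2(TPM + 0.1), and between 0.89 and 0.97 on leaving out 1 replicate.

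Counts of calls depended far more on the method. Against 693 genes called, DESeq2 gave 1562, voom with group weights 1415, no count filter 1141, log2(TPM + 0.1) 359, log2(TPM + 1) without a filter 202, and leaving out 1 replicate from 539 to 6143. The highest count, without B1a replicate 2, takes its spread from the B2 pair alone. Against 512 higher in B1a, the same settings gave 1011, 1054, 779, 196 and 117, filtered log2(TPM + 1) gave 266, and leaving out 1 replicate gave 394 to 2787. Against 181 higher in B2, DESeq2 gave 551, voom 278, voom with group weights 361, at least 10 counts in every library 279, no count filter 362, log2(TPM + 1) without a filter 85, and leaving out 1 replicate from 144 to 3356. On the TPM scale calls were thus split more evenly, with 266 higher in B1a and 233 higher in B2 by filtered log2(TPM + 1), and 196 and 163 by log2(TPM + 0.1). Of the list genes, 4 were higher in B1a, against 11 by DESeq2, 11 by voom with group weights, 7 with no count filter, 2 and 2 by the filtered TPM settings, 1 by log2(TPM + 1) without a filter, and 2 to 14 on leaving out 1 replicate. The 11 higher in B2 became 19 by DESeq2, 6 by log2(TPM + 1) without a filter, and 9 to 24 on leaving out 1 replicate. The cause of these shifts was not tested. With the replicate block 1481 genes were called, 889 higher in B1a and 592 higher in B2, of which 9 list genes were higher in B1a. The block changed no member's call. Same-numbered B1a and B2 libraries did not deviate together (r = -0.03 across genes, 2 pairs), and the samples share only a number.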
